A study of Mus musculus with 2 samples.

Results

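RNA of mouse embryonic heart was sequenced at embryonic day 12.5, and the genes described here are those that remove reactive oxygen species, keep thiols reduced and make or use glutathione. They were chosen by name: the superoxide dismutases, catalase, glutathione peroxidases, peroxiredoxins, thioredoxins and their reductases, glutaredoxins, glutathione-making enzymes, glutathione transferases numbered with 1 digit, heme oxygenases, Nqo1, Srxn1, Txnip and the NRF regulators with Keap1. The rule found 61 protein-coding genes among 22382 protein-coding rows and 37620 gene rows in all, each present once in both tables. The 2 samples, replicate 1 and replicate 2, are untreated hearts of a mixed C57BL/6 x 129S6 background and form a single group. Their labels do not say if the hearts were from separate embryos or litters, so differences between the libraries may be technical. No second condition exists in the study, and an exact sign-flip test on 2 libraries cannot give a two-sided p below 0.5. All statements below are therefore descriptions of levels, with the values of both libraries or the mean ± SD (n = 2).

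Levels are in FPKM, a fragment count divided by transcript length in kilobases and by the number of mapped fragments, so genes of different length can be set side by side. The summed FPKM of all rows was 388230 in replicate 1 and 382561 in replicate 2. The files hold no counts, so depth as such is unknown. Among 2640 genes under 0.1 FPKM the commonest ratio between the libraries would put the depth of replicate 1 at 1.33 times that of replicate 2, but 312 of them lay within 0.025 of it on the log2 scale, so this is an estimate. The labelled tissue was checked against markers. All 7 cardiomyocyte markers (Tnnt2, Actc1, Myh6, Myh7, Myl7, Nkx2-5 and Ryr2) were at 1 FPKM or more in both libraries, with a summed level of 8333 FPKM in replicate 1 and 7945 in replicate 2. Markers of red cells summed to more, 19495 and 18853 FPKM, with all 9 measured members at 1 FPKM or more and the embryonic globin Hbb-y in the lead at 15962 ± 813 FPKM. All 5 endothelial markers and 6 of 7 macrophage markers reached 1 FPKM in both libraries, macrophage markers with sums of 37.0 and 35.0 FPKM. None of 8 hepatocyte markers reached it in both (sums of 2.16 and 3.56 FPKM), while Afp and Alb did in replicate 2, at 1.49 and 1.12 FPKM. In whole tissue, fewer cells of a type and less RNA per cell cannot be told apart.

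Superoxide from respiration is turned into hydrogen peroxide by superoxide dismutases, and the peroxide is then removed by catalase, by glutathione peroxidases and by peroxiredoxins. Glutathione peroxidases draw electrons mostly from glutathione and peroxiredoxins mostly from thioredoxin, and both carriers are reduced again at the expense of NADPH. The transcription factor NRF2 (Nfe2l2), held back by KEAP1, induces many of these genes under oxidative stress. How far the heart depends on this chemistry at embryonic day 12.5 was not tested.

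Several of these enzymes use selenocysteine, a rare amino acid written by a TGA codon that otherwise ends translation. The codons shown next are those of the catalytic residue in the glutathione peroxidases, since they tell the selenoproteins of this family from its other members. Each stretch runs 5′ to 3′ on the coding strand, from GENCODE M21 transcripts on GRCm38, with the codon of the catalytic residue in capitals and 12 coding bases on each side.
Gpx1: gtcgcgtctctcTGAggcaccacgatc
Gpx2: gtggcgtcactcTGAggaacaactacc
Gpx3: gtagccagctacTGAggtctgacagac
Gpx4: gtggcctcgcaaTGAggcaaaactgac
Gpx5: gtggctacctatTGCggtctgacaatc
Gpx6: gtggcatccttcTGTggcctgacagct
Gpx7: gtagctagcgaaTGTggcttcacagac
Gpx8: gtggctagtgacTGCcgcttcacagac

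Gpx1, Gpx2, Gpx3 and Gpx4 carry TGA there, while Gpx5, Gpx6, Gpx7 and Gpx8 carry TGT or TGC, which write cysteine. The TGA of Gpx1 is codon 47 of 201 and lies at chr9:108339451-108339453 on the plus strand. That of Gpx3 lies at chr11:54907256-54907258 and that of Gpx4 at chr10:80054737-80054739, both also on the plus strand. The cysteine codon of Gpx8 lies at chr13:113045661-113045663 on the minus strand. Aligned to Gpx1, the proteins read from these coding sequences were 63.7% identical for Gpx2, 52.3% for Gpx3 and 40.6% for Gpx4. For the cysteine members the identity was 49.7% for Gpx5, 51.3% for Gpx6, 41.9% for Gpx7 and 34.3% for Gpx8. The cysteine codons were placed by this alignment.

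The antioxidant and glutathione genes were mostly abundant. Of the 61, 48 (78.7%) were at 1 FPKM or more in both libraries, against 52.4% of 22240 protein-coding symbols. Of the other 13, 6 were listed at 0 in both libraries and 7 had low values. Their median level was 19.6 FPKM in replicate 1 and 20.1 in replicate 2, against 1.66 FPKM in each library for all protein-coding genes. At 100 FPKM or more in both libraries stood 6 of them, or 9.84%, against 2.11% of all protein-coding genes. Those 6 were Gpx3, Prdx2, Prdx1, Sod1, Gpx1 and Txn1. Together the 61 genes held 0.788% of the summed protein-coding FPKM in replicate 1 and 0.790% in replicate 2. The 10 highest accounted for 67.0% of their own sum.

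**Figure D1:**
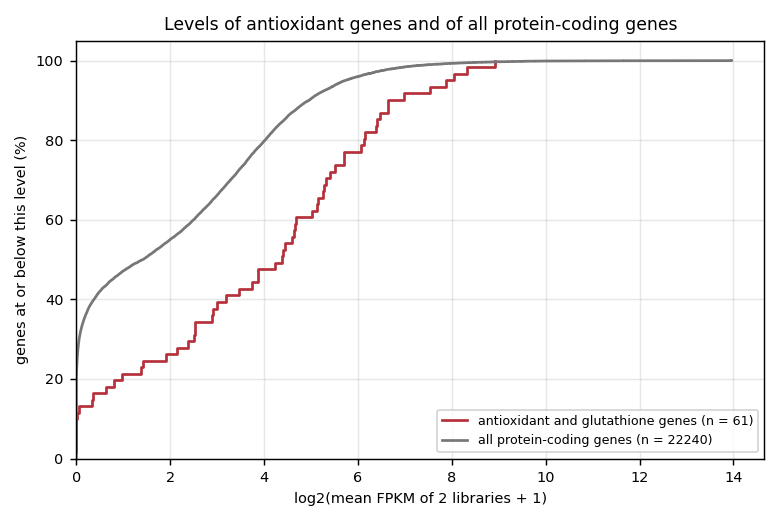
Cumulative share of genes (%) by level, as log2 of the mean FPKM of the 2 libraries plus 1, for the 61 antioxidant and glutathione genes and for all 22240 protein-coding symbols. The curve of the antioxidant genes lies to the right, with a median of 19.9 FPKM against 1.67 FPKM.

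**Figure D2:**
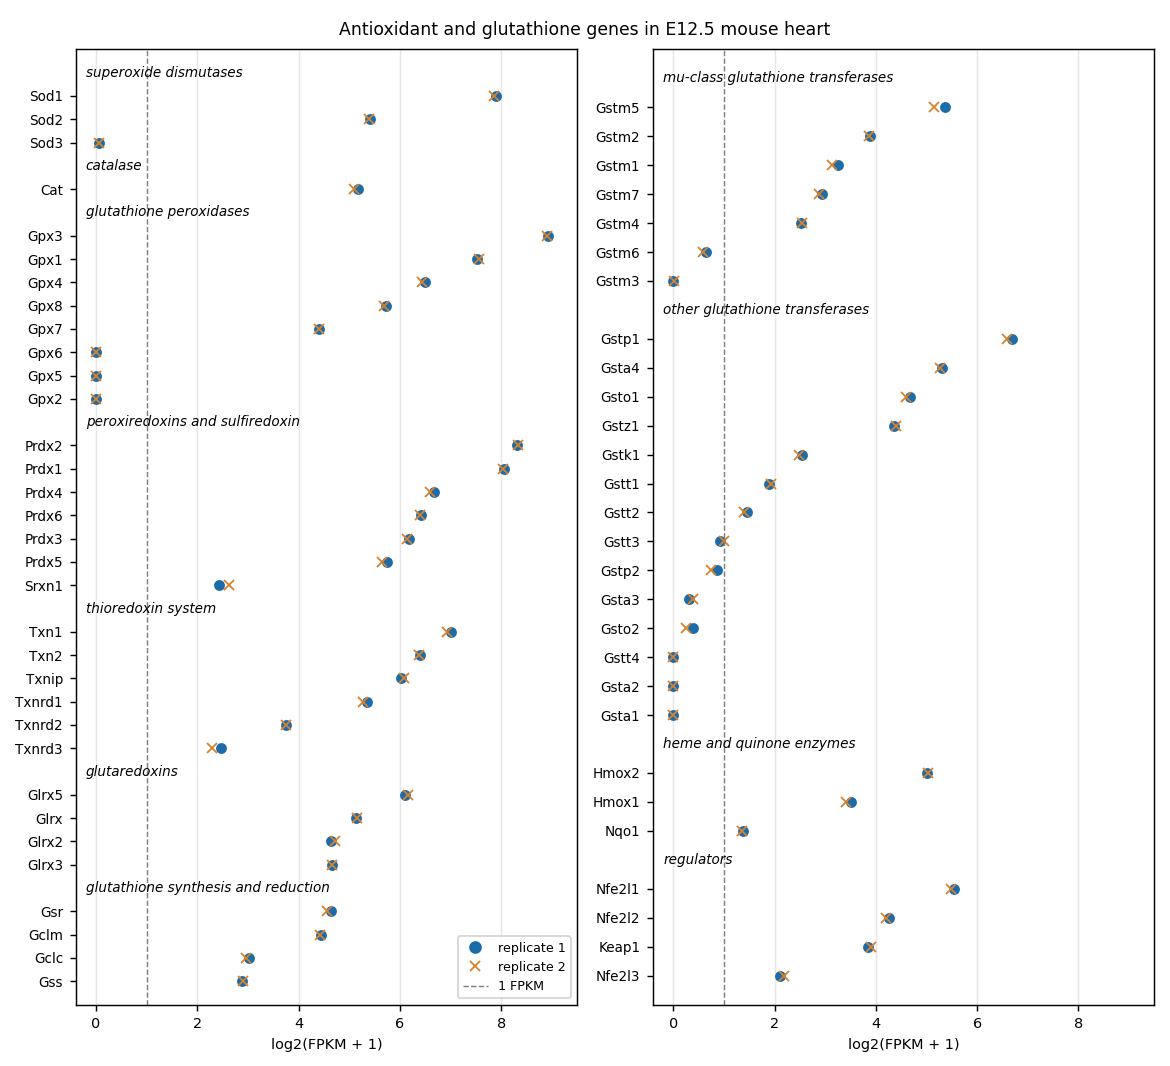
Level of each of the 61 genes, as log2(FPKM + 1), grouped by role, with replicate 1 as a dot, replicate 2 as a cross and 1 FPKM as a dashed line. The marks of the libraries nearly coincide for every gene, and levels run from 0 to 482 FPKM (Gpx3).

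Among superoxide dismutases the cytosolic copper-zinc enzyme led and the secreted one was close to absent. Sod1 (chromosome 16, 90220987 to 90226567, mm9) had 236 FPKM in the first library and 230.1 in the second. Sod2, the manganese enzyme of the mitochondrial matrix, had 41.8 and 41.2 FPKM, with 101 bases matching Ctcfl. Sod1 was thus 5.66 times Sod2 in replicate 1 and 5.59 times in replicate 2. Sod3, the extracellular enzyme, had 0.0427 and 0.0396 FPKM, which put it above 30.1% and 29.6% of protein-coding genes. The libraries did not overlap between any of the 3 genes. Ccs, the chaperone that loads copper into SOD1, had 13.4 and 11.9 FPKM and was singled out after its values were seen.

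Catalase, the peroxisomal enzyme that splits hydrogen peroxide, was of middle rank. Cat had 35.1 FPKM in replicate 1 and 33.4 in replicate 2, which was 0.192 and 0.177 times Gpx1. Its values overlapped those of Glrx and lay below all those of Sod2.

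The glutathione peroxidases spanned the full range of levels. Gpx3, which encodes the secreted plasma enzyme, was the highest of all 61 genes at 485 and 478 FPKM, rank 73 and rank 71 among protein-coding genes (chromosome 11, 54715955 to 54723879, mm9). Gpx1, the cytosolic and mitochondrial enzyme, had 183 and 188 FPKM. Gpx4, which reduces lipid peroxides in membranes and guards against ferroptosis, had 89.4 and 85.5 FPKM. The libraries of these 3 genes did not overlap, and Gpx4 stood at 0.489 and 0.454 times Gpx1. A processed copy matches Gpx4 over 762 bases at 99.7% identity, so its level is uncertain. Gpx2, known from gut epithelium and with a processed copy elsewhere, was listed at 0 in both libraries.

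The cysteine-bearing glutathione peroxidases lay below Gpx1, Gpx3 and Gpx4, but Gpx7 and Gpx8 lay above Gpx2. Gpx8, a membrane protein of the endoplasmic reticulum, had 52.1 and 50.6 FPKM, and its relative Gpx7, of the same compartment, had 20.1 and 20.3 FPKM. Gpx8 was 2.59 and 2.49 times Gpx7. Gpx5, known from the epididymis, and Gpx6, known from olfactory epithelium, were listed at 0. The 4 selenocysteine genes held 91.3% of the summed glutathione peroxidase FPKM in replicate 1 and 91.4% in replicate 2. The 4 cysteine genes held 8.71% and 8.61%. Most of the first share came from Gpx3 and Gpx1. Of the first 4 genes 3 reached 1 FPKM, and of the other 4 genes 2 did.

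All 6 peroxiredoxins were high. Prdx2, a cytosolic peroxiredoxin that is very abundant in red cells, had 315 FPKM in replicate 1 and 322 in replicate 2 (chromosome 8, 87493486 to 87498733, mm9). Prdx1, its close relative found in most cells, had 265 and 263 FPKM, or 0.840 and 0.817 times Prdx2. The libraries of this pair did not overlap. The 9 erythroid markers named above summed to 19495 and 18853 FPKM in these libraries, and their part in the level of Prdx2 was not tested. Prdx2 shares 181 bases with Rnaseh2a on the opposite strand, which had 29.6 and 30.9 FPKM. Prdx1 has a processed copy of 98.3% identity over 597 bases, so its level is uncertain.

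The other peroxiredoxins followed in the order of Prdx4, of the endoplasmic reticulum, at 100.9 and 95.8 FPKM, then the 1-cysteine enzyme Prdx6 at 84.2 and 83.4 FPKM. Below them came the mitochondrial Prdx3 at 71.5 and 69.1 FPKM. Prdx5, found in mitochondria, peroxisomes and cytosol, had 53.0 and 49.5 FPKM. No neighbours in the order of the 6 peroxiredoxins overlapped. Srxn1, the sulfiredoxin that repairs overoxidised peroxiredoxins, was far lower at 4.42 and 5.16 FPKM. Peroxiredoxins and Srxn1 together held 30.1% and 30.3% of the summed FPKM of the 61 genes, and glutathione peroxidases 27.9% and 28.1%.

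In the thioredoxin system the cytosolic forms exceeded the mitochondrial forms. Txn1, the cytosolic thioredoxin, had 128 and 122 FPKM, and the mitochondrial Txn2 83.6 and 82.2 FPKM, so that Txn1 was 1.53 and 1.48 times Txn2. The cytosolic reductase Txnrd1 had 39.8 and 37.7 FPKM, 3.19 and 3.03 times the mitochondrial Txnrd2 at 12.5 FPKM in each library. Txnrd3, a thioredoxin and glutathione reductase known from testis, had 4.51 and 3.92 FPKM. Txnip, which binds thioredoxin and curbs glucose uptake, had 64.3 and 66.8 FPKM, or 0.503 and 0.549 times Txn1. The 6 genes stood in the order Txn1, Txn2, Txnip, Txnrd1, Txnrd2 and Txnrd3 in both libraries, without overlap.

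The reductases also write selenocysteine with TGA, as the codon before the last of each coding sequence, preceded by a cysteine codon TGC. The ends of their coding sequences are shown for comparison with the glutathione peroxidases, with the TGA in capitals.
Txnrd1: cagtctggctgcTGAggt
Txnrd2: gtgactggttgcTGAggc
Txnrd3: cagaaaggctgcTGAggc

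In Txnrd1 it is codon 612 of 613, at chr10:82896037-82896039 (GRCm38, plus strand). In Txnrd2 it is codon 526 of 527, at chr16:18477772-18477774 (plus strand), and in Txnrd3 codon 614 of 615, at chr6:89674789-89674791 (plus strand). All 3 selenocysteine reductases and 3 of 4 selenocysteine glutathione peroxidases reached 1 FPKM.

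Glutaredoxins, some of which reduce disulfides and glutathione adducts with glutathione, were all detected. Glrx5, the mitochondrial protein needed for iron-sulfur clusters and heme, led with 67.3 and 70.5 FPKM. Glrx, the cytosolic enzyme, had 34.0 and 34.8 FPKM. The mitochondrial Glrx2, at 23.8 and 25.4 FPKM, and the iron-handling Glrx3, at 24.4 FPKM in each library, overlapped. Glrx5 was 2.83 and 2.77 times Glrx2. A processed copy matches Glrx3 over 1014 bases at 99.1% identity, so its level is uncertain.

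The 4 genes of glutathione synthesis and reduction had a median of 13.8 FPKM. Gclm, the modifier subunit of glutamate-cysteine ligase, had 20.8 and 20.6 FPKM, while Gclc, its catalytic subunit, had 7.16 and 6.81 FPKM. Gclm overlaps a pseudogene on the same strand over 492 bases. The modifier was thus 2.90 and 3.03 times the catalytic subunit. Gss, the synthetase of the second step, had 6.39 and 6.53 FPKM, 0.266 and 0.288 times Gsr. Gsr, the reductase that renews glutathione, had 24.0 and 22.7 FPKM. Gss overlaps Acss2 on the opposite strand, which had 4.93 and 4.46 FPKM, and the files do not say whether strand was used.

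Glutathione transferases, which join glutathione to electrophiles, ran from 98.8 FPKM for Gstp1, as a mean of both libraries, down to 0. Of 21 genes 12 reached 1 FPKM in both libraries, a share close to the 52.4% of all protein-coding genes. The pi class held 38.0% of their summed FPKM in replicate 1 and 37.7% in replicate 2, the mu class 27.4% and 26.5%, the alpha class 14.3% and 14.8% and the omega class 9.23% and 9.21%. The zeta class, of 1 gene (Gstz1, of tyrosine breakdown), held 7.23% and 7.88%. Theta and kappa classes held between 1.78% and 2.12% each.

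In the pi, alpha and omega clusters 1 gene lay above 1 FPKM and its neighbours under it. In the pi pair on chromosome 19 (4035411 to 4042221, mm9) Gstp1 had 102 and 95.5 FPKM and its neighbour Gstp2 had 0.829 and 0.686 FPKM. These 2 genes match over 707 bases at 98.2% identity, so reads of one may have been given to the other, and the difference is uncertain. In the alpha cluster on chromosome 9, Gsta4, which clears the lipid peroxidation product 4-hydroxynonenal, had 38.5 and 37.4 FPKM, while Gsta1 and Gsta2 were listed at 0. Those 2 genes match over 570 bases at 98.6% identity and have further near-identical copies, so their listing at 0 is uncertain. Gsta3, on chromosome 1, had 0.245 and 0.310 FPKM. In the omega pair Gsto1 had 24.7 and 23.3 FPKM and Gsto2 0.318 and 0.193 FPKM.

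The mu cluster of 7 genes spans 149.1 kb on chromosome 3 (107698739 to 107847812, mm9). Gstm5, at its low-coordinate end, was highest at 40.0 and 34.7 FPKM, the largest difference between libraries of any of the 61 genes on FPKM + 1, at 1.15-fold on that scale, which flattens low genes. Next by level came Gstm2 at 13.8 and 13.5 FPKM, Gstm1 at 8.52 and 7.73, Gstm7 at 6.68 and 6.32 and Gstm4 at 4.77 and 4.83 FPKM. In the middle of the cluster lay the lowest, Gstm6 at 0.577 and 0.511 FPKM and Gstm3 at 0 in replicate 1 and 0.0147 FPKM in replicate 2. No neighbours in this order overlapped between the libraries. Gstm3 and Gstm6 overlap on the same strand, and Gstm1 has processed copies, so their levels are uncertain.

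The theta cluster on chromosome 10 was low throughout. Gstt1 had 2.71 and 2.80 FPKM, Gstt2 1.73 and 1.62 FPKM and Gstt3 0.903 and 1.0004 FPKM, so that Gstt3 reached 1 FPKM in replicate 2 alone. Gstt3 overlaps Gm20441 on the same strand over 6840 bases, so its level is uncertain. Gstt4 was listed at 0. Gstk1, the mitochondrial and peroxisomal kappa enzyme, had 4.83 and 4.60 FPKM, and Gstz1 had 19.6 and 20.1 FPKM.

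**Figure D3:**
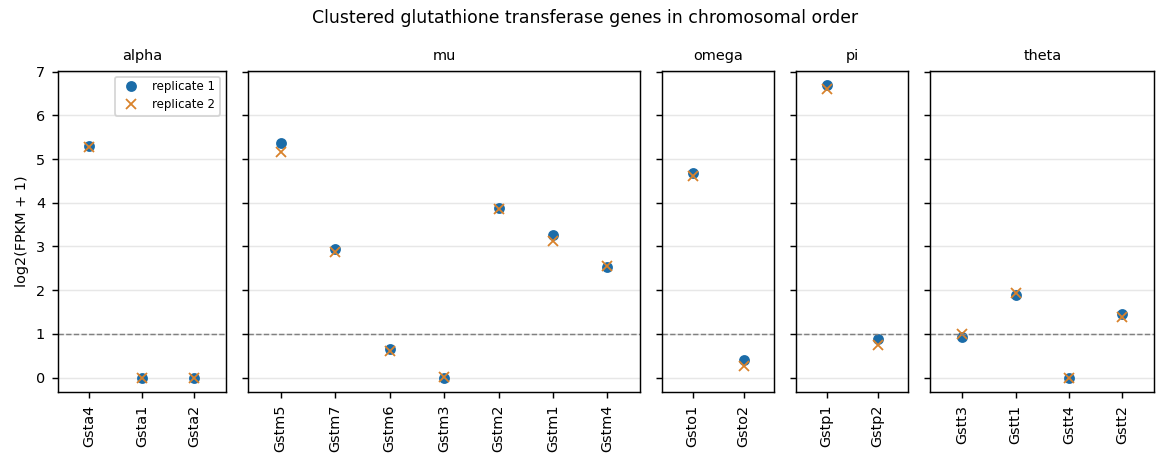
Levels of glutathione transferase genes, as log2(FPKM + 1), in the order of their start on the chromosome within each class that lies in a cluster, with replicate 1 as a dot, replicate 2 as a cross and 1 FPKM as a dashed line. In the pi, alpha and omega clusters 1 gene stands high and the others lie under 1 FPKM, while 5 of the 7 mu genes lie above it.

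The heme oxygenases and Nqo1 were of middle to low level. Hmox2, the constitutive heme oxygenase, had 31.3 FPKM in replicate 1 and 31.7 in replicate 2, and Hmox1, the inducible form, had 10.5 and 9.67 FPKM. Hmox2 was 2.997 and 3.27 times Hmox1. Hmox1 is also strong in macrophages that recycle heme, and the 7 macrophage markers summed to 37.0 and 35.0 FPKM with Fcgr1 alone under 1 FPKM. Their part in the level of Hmox1 was not tested. Hmox2 overlaps another gene over 16395 bases on the opposite strand, 5730403B10Rik, at 48.6 and 48.3 FPKM, and shares sequence with Ppp4r2, so its level is uncertain. Nqo1, a quinone reductase used as a readout of NRF2 activity, had 1.61 and 1.57 FPKM, near the median of all protein-coding genes.

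Of the regulators, Nfe2l1 was highest. Nfe2l1, which drives proteasome genes and basal antioxidant genes, had 45.8 and 43.9 FPKM. Nfe2l2, the gene of NRF2, had 18.1 and 17.4 FPKM, and Nfe2l1 was 2.53 and 2.52 times it. Keap1, which marks NRF2 for degradation, had 13.5 and 13.97 FPKM, and Nfe2l2 was 1.34 and 1.247 times Keap1. Nfe2l3 was lowest at 3.32 and 3.54 FPKM. The libraries did not overlap between any of the 4 genes.

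The promoters of these genes were searched for the core of the antioxidant response element, the motif that NRF2 with a small MAF protein binds, written TGACNNNGC, on both strands from 250 bases before to 50 bases after the RefSeq start (GRCm38.p6). A RefSeq promoter was matched for 54 of the 61 genes by symbol, and 9 of these held it (16.7%), against 14.8% of 17492 protein-coding genes, a share close to the background. The 9 were Gclm, Gsta3, Gstm5, Gstm7, Nfe2l2, Prdx1, Sod1, Srxn1 and Txnrd1. Their levels ran from 0.277 FPKM (Gsta3) to 264 FPKM (Prdx1), with a median of 20.7 FPKM. A match here is a description of sequence and not of binding. Sequence farther from the start was not searched, so a gene without a match may still hold the motif there.

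Ratios of 28 pairs of related genes were compared with the spread of single genes between libraries. That spread was taken as the 95th percentile of the size of log2 differences, 0.22, over protein-coding genes that averaged at least 1 FPKM. The mean log2 ratio of FPKM + 1 was larger than that, in either direction, for all 28 pairs. The closest pair was Prdx1 over Prdx2 at -0.27 ± 0.03. Next were Nfe2l2 over Keap1 at 0.35 ± 0.07, Prdx3 over Prdx5 at 0.45 ± 0.04, Glrx3 over Glrx at -0.48 ± 0.02 and Gstt1 over Gstt2 at 0.49 ± 0.06. The limit covers the spread between these libraries and not errors that both share. The same share was not computed for pairs of other genes, so the count of 28 does not set these families apart. The pairs were a chosen set. Close relatives outside it included Glrx2 and Glrx3, with means of 24.6 and 24.4 FPKM and overlapping libraries.

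**Figure D4:**
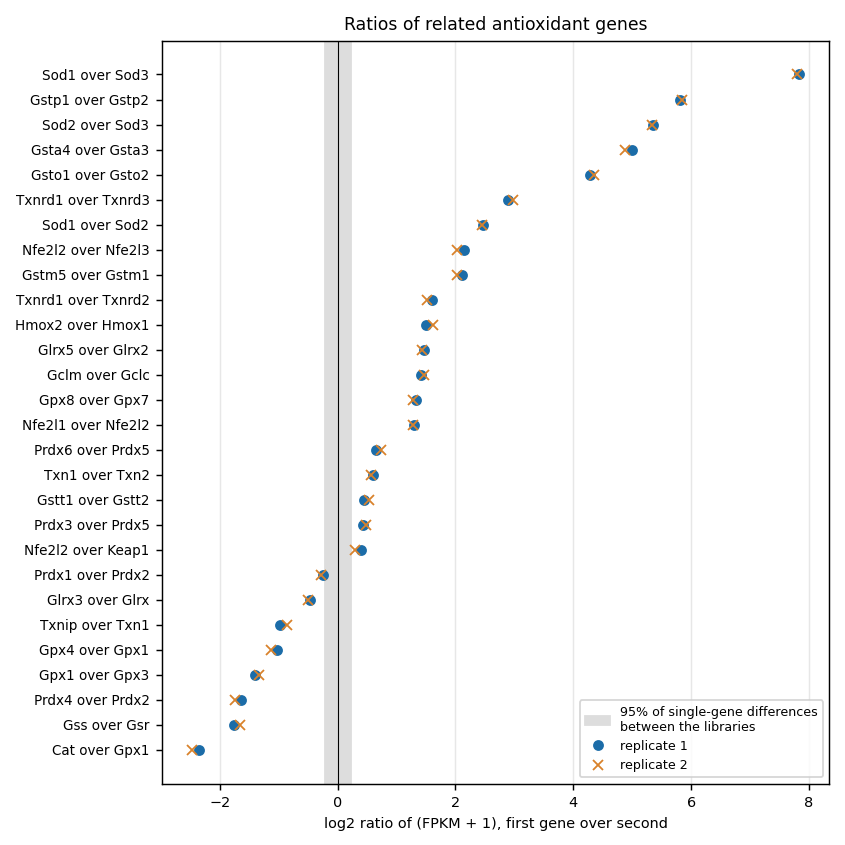
Log2 ratio of FPKM + 1 for 28 pairs of related genes, first gene over second, with replicate 1 as a dot, replicate 2 as a cross and a grey band for the central 95% of single-gene differences between the libraries (0.22 either way). All pairs lie outside the band, Prdx1 over Prdx2 nearest to it at -0.27.

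Over all 55 genes above 0, neighbours in the order of mean FPKM overlapped between libraries in 16 of 54 steps. Runs in which each gene overlapped the next were Txnrd1, Gsta4, Gstm5, Glrx and Cat between 34.2 and 38.7 FPKM, and Glrx2, Glrx3, Gsto1 and Gsr between 23.3 and 24.6 FPKM. Within them Txnrd1 and Gsta4 still lay above Glrx and Cat in both libraries, and Glrx3 above Gsr. A further run, Gstm4, Srxn1 and Gstk1, lay between 4.71 and 4.80 FPKM.

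The libraries matched closely for these genes. None of the 48 genes that averaged at least 1 FPKM reached a log2 difference of 0.32 in FPKM + 1, against 1.84% of 11757 protein-coding genes at that mean. Both shares are close to 0, so the count of 0 says little about these genes in particular. The median size of their log2 difference was 0.05, against 0.06 for all protein-coding genes at that mean. Of the 48, 33 (68.8%) were lower in replicate 2, against 69.3% of all protein-coding genes. The farthest apart were Gstm5 (-0.20 on the log2 scale, replicate 2 over replicate 1), Srxn1 (0.19) and Txnrd3 (-0.16).

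**Figure D5:**
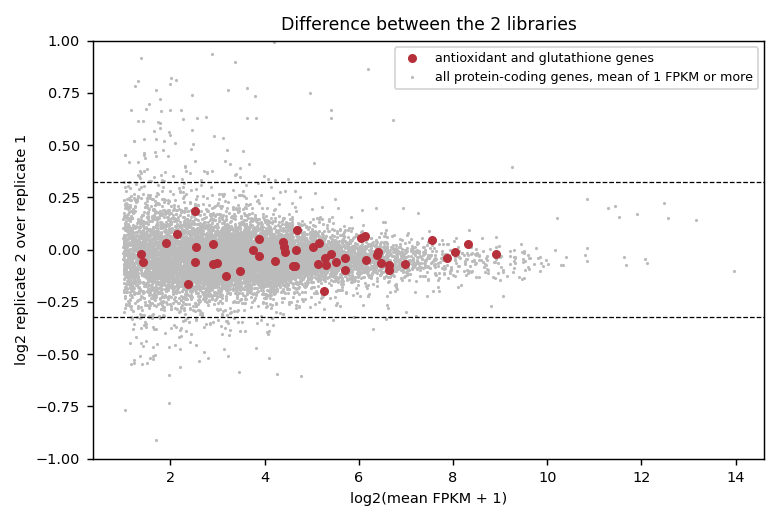
Log2 ratio of FPKM + 1, replicate 2 over replicate 1, by log2(mean FPKM + 1), for antioxidant and glutathione genes and for all protein-coding genes that averaged at least 1 FPKM, with dashed lines at 0.32 either way. All red points lie between the lines, and 13 grey points beyond the range of -1 to 1 are not drawn.

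Genes around the pathway were described by 10 lists. Of 176 distinct genes measured, 140 were at 1 FPKM or more in both libraries, and this and the count of each list are to be read against the 52.4% of all protein-coding genes. NADPH supply had 18 of 19 genes detected, with a median of 17.1 FPKM. It was led by the mitochondrial isocitrate dehydrogenase Idh2 at 466 ± 13.6 FPKM, Taldo1 of the pentose phosphate pathway at 79.1 ± 1.16, the transhydrogenase Nnt at 62.7 ± 4.09 and Pgd at 41.8 ± 0.856 FPKM. Only the folate enzyme Aldh1l1 missed it, at 0.332 ± 0.0506 FPKM. G6pdx, the entry enzyme of the pentose phosphate pathway, had 7.61 and 6.93 FPKM and was singled out after its values were seen.

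In cystine uptake and glutathione turnover 14 of 21 genes were detected, with a median of 1.66 FPKM. Slc25a39, which carries glutathione into mitochondria, led at 82.2 ± 1.499 FPKM, followed by the peptidase Lap3 at 34.2 ± 0.270, the transporter heavy chain Slc3a2 at 19.5 ± 0.345 and the neutral amino acid transporter Slc1a5 at 18.2 ± 0.130 FPKM. Among the lowest were the gamma-glutamyl transferase gene Ggt1 at 0.174 ± 0.0435 FPKM and Slc3a1 at 0.0898 ± 0.0302 FPKM, and Ggt6 was listed at 0. Their relatives Ggt5 at 2.19 ± 0.0918 and Ggt7 at 1.05 ± 0.0121 FPKM, singled out after their values were seen, were detected. The cystine transporter Slc7a11, singled out after its values were seen, had 1.60 and 1.73 FPKM.

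Selenoprotein synthesis had 10 of 12 genes detected, among them the selenophosphate synthetases Sephs1 at 32.3 ± 0.656 and Sephs2 at 27.2 ± 0.448 FPKM and the kinase Pstk at 25.5 ± 0.172 FPKM, after the ribosomal protein gene Rpl30 at 304 ± 10.5 FPKM. The selenoprotein uptake receptor Lrp2 was at 0.233 ± 0.0281 FPKM. Of 13 other selenoprotein genes measured 10 were detected, led by Sepw1 at 163 ± 0.933, 2700094K13Rik (selenoprotein H) at 122 ± 2.30, Sep15 at 113 ± 2.92 and the selenium carrier Sepp1 at 64.3 ± 3.61 FPKM. The deiodinases of thyroid hormone were lowest, with Dio2 at 0.579 ± 0.0886, Dio3 at 0.0722 ± 0.00763 and Dio1 at 0.0297 ± 0.0419 FPKM.

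All 16 NRF2 partners and feedback genes were detected, with a median of 12.1 FPKM. The autophagy receptor Sqstm1 was at 71.9 ± 1.72, the ligase subunits Rbx1 and Cul3 at 65.6 ± 0.494 and 42.3 ± 1.72, and Dpp3 at 34.5 ± 0.0559 FPKM. Of 19 other NRF2-responsive genes measured 13 were detected, with a median of 6.26 FPKM. The ferritin chains Ftl1 at 641 ± 10.7 and Fth1 at 636 ± 20.3 FPKM led, followed by Ugdh at 32.6 ± 0.205 and the biliverdin reductase Blvrb, known from red cells, at 26.3 ± 1.55 FPKM. Osgin1 at 0.0867 ± 0.00523, Aldh3a1 at 0.0695 ± 0.0268 and Akr1b7 at 0.0679 ± 0.0684 FPKM were lowest. Near-identical copies were sought for the 61 genes alone, so the ferritin values carry no such check.

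Protein repair and thioredoxin-related genes were detected in full, 26 of 26, with a median of 27.4 FPKM, led by the disulfide isomerases Pdia3 at 236 ± 2.91, P4hb at 146 ± 1.89 and Pdia6 at 141 ± 0.433 and by Txndc5 at 97.6 ± 0.631 FPKM. Of microsomal and other glutathione-related genes 15 of 19 were detected, led by Eef1g, Clic1, Clic4 and Esd between 102 and 145 FPKM, with Mgst2 at 0.403 ± 0.131, Gdap1 at 0.126 ± 0.00590 and Ptgs2 at 0.116 ± 0.0166 FPKM lowest. All 13 metal-handling genes were detected, with the copper chaperones Cox17 at 86.9 ± 1.32 and Atox1 at 58.2 ± 0.0786 FPKM in the lead, then Fech at 40.3 ± 0.426 and Tfrc at 32.4 ± 4.28 FPKM.

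Sources of superoxide and hydrogen peroxide were the lowest list, with 9 of 22 genes detected and a median of 0.716 FPKM, under the 1.67 FPKM of all protein-coding genes. This list held no gene of the respiratory chain, so it does not describe superoxide from respiration. Among the highest genes of the list were Poldip2 at 44.7 ± 1.93 FPKM, the oxidase subunit Cyba at 39.3 ± 0.201 and the monoamine oxidase Maoa at 6.90 ± 0.163 FPKM. Nox3 at 0.00422 ± 0.00597 and Duox1 at 0.00177 ± 0.00251 FPKM were near 0, and Dao was listed at 0. Nox4, the NADPH oxidase known from heart and vessels, had 2.23 and 2.11 FPKM and was singled out after its values were seen.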

How the data were processed

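RNA-seq tables of 2 samples in 1 group were used. Per the labels' protocols, Trizol RNA and TruSeq RNA v2 libraries were made. The authors deposited 1 FPKM value per gene and sample. The submitters' processing notes name GSNAP, Cufflinks and Cuffnorm and the builds mm9 and hg19. The annotation, strand setting and handling of multiply matching reads are not stated there. Without counts, no count model, interval or floor is given, and precision is shown by the spread of 2 libraries.

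From the deposited FPKM, rows of 1 symbol were summed (22240 protein-coding symbols). Detection meant at least 1 FPKM in both libraries, and a difference between libraries was called at a log2 size of 0.32 in FPKM + 1. Log2 values used a pseudocount of 1 FPKM, which understates differences of low genes. Neighbours overlapped where the lower gene's highest library reached the higher gene's lowest. Every gene of the rule may be named, as may each list's 4 highest and up to 3 lowest under 1 FPKM, and all markers. Some genes that this takes are not reported here. Members and lists were chosen with earlier results of these data known. Of the listed symbols, 7 had no match by symbol or gene ID and were not analysed here.

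Copies were matches of a member's transcripts to another, non-overlapping gene at 98% identity over at least 75 bases (BLAST 2.17.0, GENCODE M21, GRCm38), found for 13 members. Overlaps used mm9 positions of the files, 14 members having one on the opposite strand and 4 on the same strand. All 61 gene IDs matched the gene name table. Alternatives were other detection limits, pseudocounts, filters and fold limits, each library alone, rescaled libraries and the highest row of a symbol. One leaving out the 16 members with a copy or same-strand overlap was chosen after seeing the data. Scripts ran in Python 3.11.15 with NumPy 2.4.6, pandas 2.3.3, Biopython 1.88 and Matplotlib 3.10.9 and were tested on simulated data.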

Additional observations from a re-analysis of the deposited data

How the results depend on the processing

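Of the 61 genes, 48 were detected in both libraries at 1 FPKM, 51 at a limit of 0.5 FPKM and 40 at 5 FPKM. Without replicate 1 or without replicate 2 the count was 49 or 48. Rescaling by 0.971 and the highest row per symbol left it at 48. With the 16 genes that have a copy or a same-strand overlap left out of the 61, 39 of the remaining genes were detected. That count is of a smaller set and is not to be read against 48 as a loss. The median of log2(FPKM + 1) was 4.38. It was 4.32 with a pseudocount of 0.1 FPKM and 4.86 over the 48 genes that averaged at least 1 FPKM, a set that leaves out the low genes by construction. Each library alone gave between 4.36 and 4.40. The count of 0 genes that differ by 0.32 on the log2 scale was also 0 with no filter, with a pseudocount of 0.1 FPKM, after rescaling and with the highest row. Limits of 1.5-fold and of 5 FPKM could give only 0 by construction. Of the pathway genes, 140 were detected, and between 113 and 149 under the alternatives. All 28 ratios kept their sign and stayed beyond 0.22 in each alternative run. A pseudocount of 0.1 FPKM moved 16 of them by more than their SD. The largest shifts were in pairs with a gene under 1 FPKM, but pairs with both genes above 1 FPKM were also among the 16. No paired analysis was possible because the 2 samples form 1 group. Depth limits the genes under 0.1 FPKM, where values stand for few fragments.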

Other observations

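Among the pathway genes around these members, 6 of 142 that averaged at least 1 FPKM (4.23%) stood 0.32 or more apart between the libraries on the log2 scale of FPKM + 1, against 1.84% of all protein-coding genes at that mean. They were singled out after their values were seen. The metal-binding metallothionein Mt2 had 4.77 FPKM in replicate 1 and 11.2 in replicate 2, and its neighbour Mt1 had 27.5 and 36.9 FPKM. Mt3, of the same family, ran the other way, at 9.98 and 6.72 FPKM. The zinc importer Slc39a14 had 3.17 and 4.26 FPKM, and the peptidase Anpep had 5.14 and 3.65 FPKM.

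Glo1, the glyoxalase that uses glutathione to detoxify methylglyoxal, had 50.6 FPKM in replicate 1 and 93.1 in replicate 2, a plain ratio of 1.84. Hagh, the second enzyme of that pathway, had 11.1 and 10.5 FPKM.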
